A study of Mus musculus with 24 samples.

Results

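The comparison asked whether the difference that interleukin 12 (IL-12) makes in a treated tumour was the same 3 and 7 days after cell transfer. It used 16 of the 24 arrays of the series, 4 in each of 4 groups: Mock and IL-12TD tumours at day 3, and Mock and IL-12TD tumours at day 7. The remaining 8 arrays, 4 No Treatment tumours at each day, served as a second reference. All tumours grew from 500000 B16 cells, a pigmented mouse melanoma line, placed under the skin of mice 6 to 12 weeks old. In the Mock and IL-12TD arms the mice received 5 Gy to the whole body 10 to 14 days later, together with 100000 CD8+ T cells of the pmel-1 line, whose receptor recognises a melanocyte protein. The cells were un-transduced in the Mock arm and transduced with IL-12 in the IL-12TD arm, so irradiation and transferred T cells were shared by both arms and absent from the labels of the No Treatment tumours. Affymetrix arrays read the total RNA of each dispersed tumour. The mouse strain is not given in the sources used here. No batch or date of scanning is among the labels; day and batch therefore cannot be told apart within an arm.

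All values are log2 intensities, a level is a mean ± SD over 4 arrays, and a difference is a log2 difference ± SE of the limma model. The interaction is the day 7 difference (IL-12TD minus Mock) minus the day 3 difference. A gene was called at a Benjamini-Hochberg adjusted p under 0.05 over the 19938 genes tested. An interaction can come from either arm, so the change from day 3 to day 7 in each arm is given with each gene named. An arm said to move alone was the only arm called, which does not show that the other arm was unchanged.

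IL-12 is made by phagocytes and dendritic cells and acts through STAT4 on T and natural killer cells, which then secrete interferon gamma. Interferon gamma acts on nearly all cells, and IRF1 and CIITA carry its signal to the guanylate-binding proteins and to antigen presentation. Neutrophils and inflammatory monocytes are short-lived cells that arrive early at an inflamed site, drawn by chemokines such as CXCL2. A tumour in such a setting therefore holds signals of different lifetimes, from granulocytes, from T cells and from the tumour cells.

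The melanocyte genes marked all tumours as labelled: mean Pmel levels lay between 11.45 and 11.76 in the 6 groups, and mean Dct levels between 12.5 and 12.81. The IL-12 subunit genes were dim. Il12a averaged 4.54 ± 0.06 in Mock and 4.93 ± 0.26 in IL-12TD tumours at day 3, and 5.14 ± 0.1 and 5.33 ± 0.14 at day 7. Il12b averaged 4.27 ± 0.27 and 4.57 ± 0.24 at day 3, and 4.55 ± 0.18 and 4.99 ± 0.18 at day 7. Whether these probesets read the transduced sequence is not given in the sources used here, so they do not check the labels. Cd8a, a chain of the receptor that marks CD8+ T cells, separated the arms at both days, as described below.

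The difference between the arms changed with the day for a large part of the genes. The interaction was called for 8467 of 19938 genes (42.5%). It was positive for 4800 (24.1%) and negative for 3667 (18.4%), and of these 1627 and 371 differed at least 2-fold. After each array was set to the same median and interquartile range, 46.4% of called genes were positive, against 56.7% as deposited. The IL-12TD arm itself changed between the days at 8330 genes (41.8%) and the Mock arm at 10152 (50.9%). The No Treatment tumours changed at 7070 genes (35.5%), so a change with time was not limited to treated tumours. IL-12TD differed from Mock at 8610 genes at day 3 (43.2%), higher at 17.3% and lower at 25.9% of all genes. At day 7 it differed at 4333 genes (21.7%), higher at 12.9% and lower at 8.83%.

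Most day 3 differences were not called at day 7. Sorted by the calls, 4548 genes had a faded difference: it was called at day 3, not called at day 7, and the interaction ran against it. In 1875 of them IL-12TD was higher at day 3 and in 2673 it was lower. Weakened differences, still called at day 7 but smaller, numbered 83 higher and 121 lower. Lasting differences, called the same way at both days with no called interaction, numbered 496 higher and 519 lower. Strengthened differences were nearly all upward, with 138 higher and 8 lower. Late differences, called at day 7 only with a called interaction, numbered 842 higher and 491 lower. In 1002 genes the difference was called in opposite directions, 734 from lower to higher and 268 from higher to lower. That a difference was not called at a day does not show that it was absent.

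**Figure D1:**
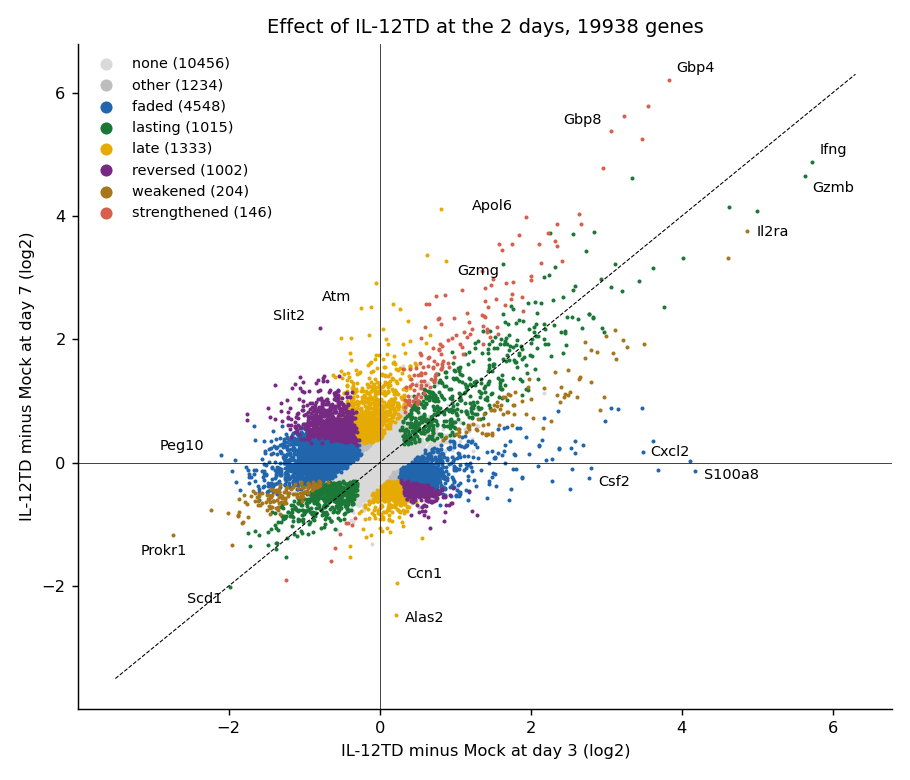
Each point is a gene, placed by its log2 difference between IL-12TD and Mock at day 3 (horizontal) and at day 7 (vertical), n = 4 arrays per group, and coloured by pattern with the number of genes in brackets. Genes on the dashed line differed equally at both days. S100a8 and Cxcl2 lie near 0 at day 7, Gbp8 and Apol6 lie above the line, and Slit2 lies left of 0 at day 3 and above 0 at day 7.

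Which arm moved depended on the gene. Among the 3667 genes with a negative interaction, only the IL-12TD change was called in 1291 (35.2%) and only the Mock change in 1505 (41%). Among the 4800 with a positive interaction the counts were 1452 (30.2%) and 1901 (39.6%). Both arms moved in opposite directions in 361 of the negative and 698 of the positive genes. Of the 1875 faded higher genes, the IL-12TD arm alone moved in 795 and the Mock arm alone in 683. Of the 2673 faded lower genes, these counts were 735 and 1227. So for many genes the difference shrank while the IL-12TD level itself was not called as changed.

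The spread of values differed between the groups, and this touches every count above. The interquartile range of log2 values averaged 2.76 in Mock and 2.26 in IL-12TD at day 3, and 2.22 in Mock and 2.45 in IL-12TD at day 7. The median interaction ran with brightness, from -0.40 in the dimmest decile of genes to 0.50 in the 9th decile. After quantile normalisation of the tested genes it lay between -0.13 and 0.05 in all deciles, and 4998 genes were called. Of the 8467 genes called as deposited, 3905 (46.1%) were then called in the same direction and 0 in the opposite one. With equal medians and interquartile ranges, 3666 (43.3%) were called in the same direction and 104 in the opposite one. Of all genes, 12.9% were called positive and 12.1% negative after quantile normalisation, and 13.7% and 15.9% with equal interquartile ranges. With No Treatment in place of Mock these shares were 18.6% and 9.11%. Where a scaling or that reference ended the call of a gene named below, this is said beside it. The pattern and the moving arm given for a gene are those of the deposited values. The rescaled fits sorted some genes otherwise, and the arm called also changed for some.

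**Figure D2:**
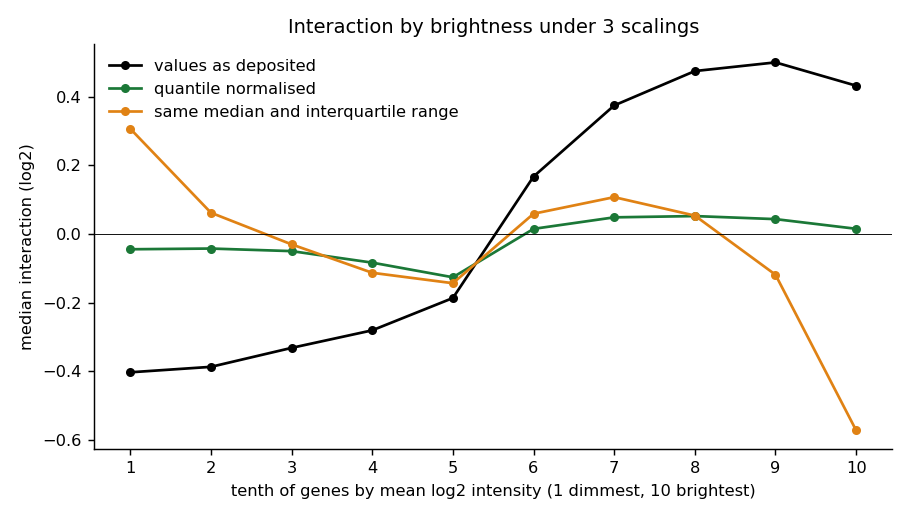
The horizontal axis gives deciles of the 19938 genes by mean log2 intensity and the vertical axis the median interaction (log2) in each decile, from 16 arrays. The values as deposited rise from -0.40 to 0.50 (9th decile), the quantile normalised values stay between -0.13 and 0.05, and the values set to the same median and interquartile range fall to -0.57 in the brightest decile.

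Most neutrophil genes were high in IL-12TD tumours at day 3 and near the Mock level at day 7. Of 24 measured neutrophil markers, 17 had a called negative interaction (18.4% of all genes did) and 0 a positive one. The median interaction was -1.55, against -0.06 over all genes. The IL-12TD arm carried this change: 18 of the 24 fell there between the days (21.6% of all genes fell), with a median of -1.47. In the Mock arm 8 rose (23.8% of all genes did) and 0 fell, with a median of 0.26. Of the 24, 16 were sorted as faded and 1 as weakened, all higher at day 3 (9.4% and 0.416% of all genes). In both rescaled fits 16 were called negative (12.1% and 15.9% of all genes) and 0 positive. There 17 and 18 of the 24 fell in IL-12TD tumours. In Mock tumours 2 rose and 2 fell after quantile normalisation, and 1 rose and 2 fell with equal interquartile ranges. The summed level of the 24 markers, as log2 of the sum, ran from 10.92 to 12.15 on the IL-12TD arrays at day 3. It ran from 9.25 to 9.68 at day 7, beside 9.03 to 9.30 and 9.06 to 9.51 on the Mock arrays. In tumours measured as a whole, fewer cells of a type and less RNA per cell cannot be told apart.

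S100a8, which encodes a calcium-binding protein abundant in neutrophils and monocytes, had the largest negative interaction in this list. Its values on the 4 IL-12TD arrays were 6.90, 7.64, 7.57 and 8.74 at day 3 and 3.89, 4.34, 3.70 and 4.15 at day 7. The Mock arrays read 3.41, 3.81, 3.41 and 3.53 at day 3 and 3.86, 4.19, 4.01 and 4.58 at day 7. All 4 IL-12TD arrays at day 3 stood above all other arrays, and the arms overlapped at day 7. The difference went from 18.04-fold at day 3 to -0.14 ± 0.25 on the log2 scale at day 7, an interaction of -4.31 ± 0.36 (adjusted p = 2.01e-08). Both arms moved, with IL-12TD falling by 3.69 ± 0.25 and Mock rising by 0.62 ± 0.25.

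S100a9, the partner of S100a8, had an interaction of -4.08 ± 0.37, again with IL-12TD falling by 3.22 ± 0.26 and Mock rising by 0.86 ± 0.26. For the chemokine receptor Cxcr2 (interaction -3.01 ± 0.47), the activating receptor Trem1 (-2.95 ± 0.42) and the secreted protein gene Retnlg (-2.57 ± 0.32), only the IL-12TD arm was called. Lcn2, an iron-scavenger protein of neutrophil granules, fell by 2.45 in IL-12TD tumours and was not called in Mock. Asprv1, a protease gene outside the list, followed the same course, with an interaction of -2.66 ± 0.38 and a called change in the IL-12TD arm only. For the granule genes of neutrophil precursors Elane (interaction -0.37), Mpo (-0.38) and Camp (-0.45) the interaction was not called, and the only arm called between the days was Mock, with rises of 0.34, 0.35 and 0.41. The interaction was called for Camp without Mock day 7 replicate 1 (-0.56) and for Mpo without Mock day 7 replicate 4 (-0.50). Without Mock day 7 replicate 1 and IL-12TD day 7 replicate 2 together it was called for Camp (-0.57) and Elane (-0.49). After quantile normalisation Elane, Mpo and Camp were at -0.12, -0.09 and -0.33, not called.

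Part of the inflammatory cytokine and chemokine genes faded beside the neutrophil genes, 7 of 16 and 10 of 22. Of all genes, 9.4% were faded and higher at day 3. Of the 16 cytokine genes, 9 had a negative and 1 a positive called interaction, with a median of -0.84, beside 18.4% and 24.1% of all genes. Of the 22 chemokine genes the counts were 11 and 0, with a median of -0.69. Between the days 11 of the cytokine and 15 of the chemokine genes fell in IL-12TD tumours (21.6% of all genes did), with medians of -1.10 and -1.06. In Mock tumours 3 and 5 fell (27.1% of all genes did), with medians of -0.07 and -0.14. The neutrophil marker level fell with them, and its part in these changes was not tested.

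Cxcl2, a neutrophil-attracting chemokine, read 8.72, 9.07, 9.35 and 11.16 on the IL-12TD arrays at day 3 and 5.15, 6.02, 4.71 and 6.15 at day 7. On the Mock arrays it read 6.17, 5.51, 5.90 and 5.98 at day 3 and 4.95, 5.62, 6.27 and 5.69 at day 7. The IL-12TD arrays at day 3 lay apart from all others, and the Mock arrays overlapped between the days. The interaction was -3.81 ± 0.68 (adjusted p = 0.000194), and only the IL-12TD arm moved, by -4.07 ± 0.48. Il1b, which encodes the pyrogenic cytokine interleukin 1 beta, read 8.32, 8.91, 8.41 and 9.89 in IL-12TD tumours at day 3 and 5.00, 6.52, 4.97 and 6.45 at day 7. Its Mock values lay between 4.99 and 5.80 on all 8 arrays. The Il1b interaction was -3.26 ± 0.59, carried by a fall of the IL-12TD arm by 3.15 ± 0.42.

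Csf2 encodes GM-CSF, a cytokine that activated T cells make for myeloid cells. It read 6.33, 6.98, 7.01 and 6.99 in IL-12TD tumours at day 3 and 3.92, 4.09, 4.28 and 4.21 at day 7. Its 8 Mock values lay between 3.71 and 4.48. The groups overlapped at day 7, and the 6.99-fold difference of day 3 became -0.09 ± 0.14. The interaction of -2.90 ± 0.20 (adjusted p = 1.02e-09) came from the IL-12TD arm alone. Xcl1, a chemokine of activated CD8+ T and natural killer cells that attracts cross-presenting dendritic cells, read 7.92, 8.27, 8.72 and 8.65 at day 3 and 5.92, 6.02, 5.78 and 5.61 at day 7 in IL-12TD tumours. The 8 Mock values of Xcl1 lay between 5.26 and 6.45. Its interaction was -2.43 ± 0.35, with only the IL-12TD arm called.

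The same arm alone was called for the interleukin 1 family member Il1f9 (interaction -3.30 ± 0.35), the macrophage chemokine Ccl4 (-2.15 ± 0.26), the neutrophil chemokine Cxcl3 (-2.16 ± 0.33), and Il10, an anti-inflammatory cytokine (-1.15 ± 0.20). It was also the only arm called for Hcar2, a receptor for short fatty acids on myeloid cells (-2.58 ± 0.61), the lipopolysaccharide co-receptor Cd14 (-1.84 ± 0.41), the histamine-forming enzyme Hdc (-2.16 ± 0.34) and the arginine-degrading enzyme Arg2 (-2.40 ± 0.37). Their lists were mixed. Of 20 monocyte and macrophage markers (with Cd14) 2 were called positive and 2 negative, with a median of 0.34. For 15 alternative activation genes (with Arg2) the counts were 2 and 3, with a median of 0.03. For 10 mast cell and basophil markers (with Hdc) they were 1 and 4, and 1 and 1 in both rescaled fits. Over all genes 24.1% were positive and 18.4% negative. Arg1, the arginase of alternatively activated macrophages, had an interaction of -1.22 ± 0.42 (adjusted p = 0.0232) with a fall of 1.72 ± 0.30 in IL-12TD tumours. That call was lost without Mock day 3 replicate 4 (-1.13, adjusted p = 0.0501), Mock day 7 replicate 3 (-1.06, 0.0583), IL-12TD day 7 replicate 1 (-1.10, 0.0535) or IL-12TD day 7 replicate 3 (-1.10, 0.0506). With No Treatment in place of Mock, Arg1 was at -0.47 (adjusted p = 0.418). Tnf weakened, from 1.78 ± 0.21 at day 3 to 0.80 ± 0.21 at day 7, with a fall of 1.07 ± 0.21 in IL-12TD tumours only. Its interaction of -0.99 ± 0.29 was -0.43 and not called against No Treatment (adjusted p = 0.276). Saa3, an acute-phase protein of macrophages, weakened in the same arm, from 2.97 ± 0.25 to 1.07 ± 0.25. Nos2, which encodes the inducible nitric oxide synthase of activated macrophages, was lasting: it differed by 2.97 ± 0.27 at day 3 and 2.13 ± 0.27 at day 7. Its interaction of -0.84 ± 0.39 was not called (adjusted p = 0.0788), but it was called without Mock day 3 replicate 1 (-1.01), IL-12TD day 3 replicate 3 (-1.13) or IL-12TD day 7 replicate 4 (-1.04). With equal interquartile ranges it was called and Nos2 was weakened (-1.09, adjusted p = 0.0249).

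Some genes of a rapid response to stimulation also had negative interactions. Of 14 immediate early and heat shock genes, 7 had a negative and 0 a positive called interaction, with a median of -0.76, beside 18.4% and 24.1% of all genes. After quantile normalisation 8 were negative (12.1% of all genes) and with equal interquartile ranges 10 (15.9%). Egr1, a growth-factor-induced transcription factor, fell by 1.06 ± 0.15 between the days in IL-12TD tumours, and Junb, a subunit of AP-1, fell by 0.69 ± 0.16, with no called change in Mock tumours. Egr3 moved in both arms, by -0.42 ± 0.13 in IL-12TD and by 0.51 ± 0.13 in Mock tumours. Egr1, Junb and Egr3 were faded, with interactions of -0.88 ± 0.21, -1.003 ± 0.22 and -0.93 ± 0.18. Against No Treatment the Egr1 interaction was -0.37 and not called (adjusted p = 0.171).

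Of 18 measured T cell markers, 16 were higher in IL-12TD than in Mock tumours at day 3 (17.3% of all genes were) and 11 at day 7 (12.9%). The interaction was called negative for 10 (18.4% of all genes) and positive for 0, with a median of -0.68. The median difference from Mock was 2.43 at day 3 and 1.21 at day 7. Of the 18, 7 were weakened, 3 faded and 4 lasting, all higher at day 3 (0.416%, 9.4% and 2.49% of all genes). Between the days 6 of the 18 fell in IL-12TD tumours (21.6% of all genes did) and 4 rose in Mock tumours, near the 23.8% of all genes that rose there. The summed T cell level ran from 11.48 to 11.71 (log2 of the sum) on IL-12TD arrays at day 3 and from 10.72 to 11.26 at day 7. On Mock arrays it ran from 8.72 to 9.11 and from 9.13 to 9.37. With No Treatment tumours as the reference in place of Mock, 4 of the 18 were called negative (9.11% of all genes).

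Cd27, a co-stimulatory receptor of naive and early memory T cells, was the T cell marker that changed most. It read 7.26, 7.00, 6.62 and 7.44 in IL-12TD tumours at day 3 and 5.55, 5.22, 4.76 and 5.06 at day 7. Its Mock values were 4.56, 4.42, 4.69 and 4.28 at day 3 and 4.77, 5.02, 4.82 and 4.60 at day 7. The arms were apart at day 3 and overlapped at day 7, with an interaction of -2.24 ± 0.24 (adjusted p = 8.57e-07) from the IL-12TD arm alone. Cd8a took another course. Its IL-12TD values were 7.88, 8.04, 7.94 and 7.89 at day 3 and 7.83, 7.93, 7.45 and 7.54 at day 7, and these ranges overlapped. Its Mock values were 4.89, 4.81, 5.00 and 5.03 at day 3 and 5.97, 5.47, 5.75 and 5.35 at day 7, higher on every array of the later day. The Cd8a difference went from 3.00 ± 0.17 to 2.06 ± 0.17 (interaction -0.95 ± 0.23, adjusted p = 0.00267), and only the Mock arm was called, with a rise of 0.70 ± 0.17. With No Treatment in place of Mock the Cd8a interaction was -0.33 (adjusted p = 0.286).

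For Cd3d, which encodes a CD3 subunit, the signalling adaptor Lat and the chromatin organiser Satb1, the IL-12TD arm alone was called, with interactions of -1.27 ± 0.23, -1.29 ± 0.21 and -1.54 ± 0.20. Stat4, which transmits the IL-12 signal, weakened from 2.03 ± 0.23 to 0.73 ± 0.23 as it fell in IL-12TD tumours. Tbx21, the T helper 1 transcription factor T-bet, weakened from 2.35 ± 0.17 to 1.09 ± 0.17, with IL-12TD falling and Mock rising. Il2ra, the high-affinity chain of the interleukin 2 receptor, went from 4.87 ± 0.22 to 3.77 ± 0.22, with a called fall in IL-12TD tumours. Its interaction of -1.10 ± 0.31 was not called after quantile normalisation (-0.77, adjusted p = 0.0676). Stat4 and Il2ra belong to a list of 15 measured genes of IL-12, interleukin 18 and interleukin 2 receptor signalling. In that list 2 genes were called negative and 3 positive, with a median of -0.19, beside 18.4% and 24.1% of all genes. Ccr7, which guides T and dendritic cells to lymph nodes, reversed from 1.18 ± 0.16 to -0.45 ± 0.16 as it fell in IL-12TD and rose in Mock tumours. Klra5, a receptor of the Ly49 family of natural killer cells, weakened from 2.92 ± 0.15 to 0.85 ± 0.15, and Cd160, a receptor of cytotoxic lymphocytes, faded from 1.29 ± 0.13 to 0.26 ± 0.13, both through the IL-12TD arm alone.

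Of 14 immune checkpoint genes, 7 had a called negative interaction and 0 a positive one, with a median of -0.56, beside 18.4% and 24.1% of all genes. In the rescaled fits 4 and 5 were negative, beside 12.1% and 15.9%. With No Treatment in place of Mock 2 were negative and 1 positive (9.11% and 18.6% of all genes), with a median of -0.10. Tnfrsf9, the co-stimulatory receptor 4-1BB, weakened from 3.08 ± 0.19 to 1.77 ± 0.19, and Pdcd1lg2, a ligand of PD-1, from 1.75 ± 0.17 to 0.61 ± 0.17, both through the IL-12TD arm alone. Against No Treatment the Tnfrsf9 interaction of -1.31 was -0.58 and not called (adjusted p = 0.109). Zbtb32, a repressor induced in activated lymphocytes, weakened from 2.26 ± 0.13 to 0.67 ± 0.13, and the lymphocyte adaptor Samsn1 from 2.16 ± 0.18 to 0.56 ± 0.18, again through IL-12TD alone. Among 17 dendritic cell markers 3 were called negative and 0 positive, so the negative share was near the 18.4% of all genes. Batf3, the transcription factor of cross-presenting dendritic cells, had an interaction of -0.54 ± 0.22 (adjusted p = 0.048) with neither arm called, and the call was lost in 12 of 16 fits that each left out an array (values from -0.63 to -0.38, adjusted p up to 0.141). The Batf3 call was also lost after quantile normalisation (adjusted p = 0.0819), with equal interquartile ranges (0.0707), array weights (0.0625) and the replicate block (0.0541), and against No Treatment (-0.33, 0.27). Of 10 B cell markers 6 were called negative as deposited (18.4% of all genes), but 2 in each rescaled fit (12.1% and 15.9%). Cd79a, a chain of the B cell receptor, reversed from 0.72 ± 0.21 to -0.63 ± 0.21 with both arms moving. It was not sorted as reversed in either rescaled fit (interactions of -0.98 and -0.88).

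Effector genes of T cells were split. Ifng, which encodes interferon gamma, had the highest day 3 difference of the 496 lasting higher genes. It read 11.55, 11.82, 11.87 and 11.73 in IL-12TD tumours at day 3 and 9.40, 9.51, 9.28 and 9.55 at day 7. Mock tumours read 6.05, 4.90, 7.26 and 5.87 at day 3 and 4.57, 4.89, 4.83 and 3.92 at day 7. IL-12TD arrays were above Mock arrays at both days, yet each arm was lower at day 7 with no overlap between its days. IL-12TD fell by 2.31 ± 0.28 and Mock by 1.47 ± 0.28, so the difference remained 29.5-fold at day 7 after 52.8-fold at day 3. The interaction of -0.84 ± 0.40 was not called (adjusted p = 0.0893). It was called without Mock day 3 replicate 3 (-1.25, adjusted p = 0.00343) or without Mock day 7 replicate 4 (-1.05, adjusted p = 0.0389), with equal interquartile ranges (-1.40, adjusted p = 0.012) and with array weights (-1.08, adjusted p = 0.0245). Against No Treatment tumours it was -2.03 and called (adjusted p = 0.000782). A lasting difference in Ifng was thus no constant level.

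Gzmb, the granule protease granzyme B, read 12.004, 11.75, 11.91 and 12.06 in IL-12TD tumours at day 3 and 10.25, 10.19, 10.38 and 10.91 at day 7. Mock tumours read 6.68, 5.07, 7.40 and 6.02, then 6.38, 5.42, 6.20 and 5.13. The arms never overlapped, and the interaction of -0.99 ± 0.72 was not called (adjusted p = 0.26), although IL-12TD alone was called as falling, by 1.498 ± 0.51. Gzma, a second granzyme, weakened from 4.62 ± 0.33 to 3.32 ± 0.33 with both arms falling (interaction -1.30 ± 0.47, adjusted p = 0.0299). Its call was lost without Mock day 3 replicate 2 (-0.99) or replicate 4 (-1.10), IL-12TD day 3 replicate 4 (-1.21), Mock day 7 replicate 3 (-1.14) or, in IL-12TD, day 7 replicate 1 (-1.24), and with a trended and robust variance prior (adjusted p = 0.0561). The pore-forming protein gene Prf1 (3.21 ± 0.28 and 2.79 ± 0.28), the granule protein gene Nkg7 (4.02 ± 0.37 and 3.33 ± 0.37) and Cd3g of the T cell receptor complex (4.99 ± 0.36 and 4.08 ± 0.36) were lasting, with neither arm called. Il12rb2, the inducible chain of the IL-12 receptor, differed by 2.77 ± 0.18 and 2.41 ± 0.18, with a called fall of the IL-12TD arm.

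Gzmg, a granzyme, was late. It read 4.78, 5.04, 5.35 and 5.42 in IL-12TD tumours at day 3 and 8.15, 9.17, 9.92 and 7.89 at day 7. Mock tumours read 4.49, 4.17, 4.29 and 4.12 at day 3 and 7.39, 4.60, 5.48 and 4.55 at day 7, so 1 Mock array at day 7 came near the IL-12TD range. Both arms rose, by 3.63 ± 0.52 and 1.24 ± 0.52, and the interaction was 2.39 ± 0.74 (adjusted p = 0.0123). Granzymes are a family of similar genes in a cluster, and how far the probeset separates Gzmg from its neighbours was not tested. Over the list of 22 effector genes, 12 were lasting, 6 weakened, 2 faded and 1 late, all higher. The shares of all genes with these patterns were 2.49%, 0.416%, 9.4% and 4.22%.

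**Figure D3:**
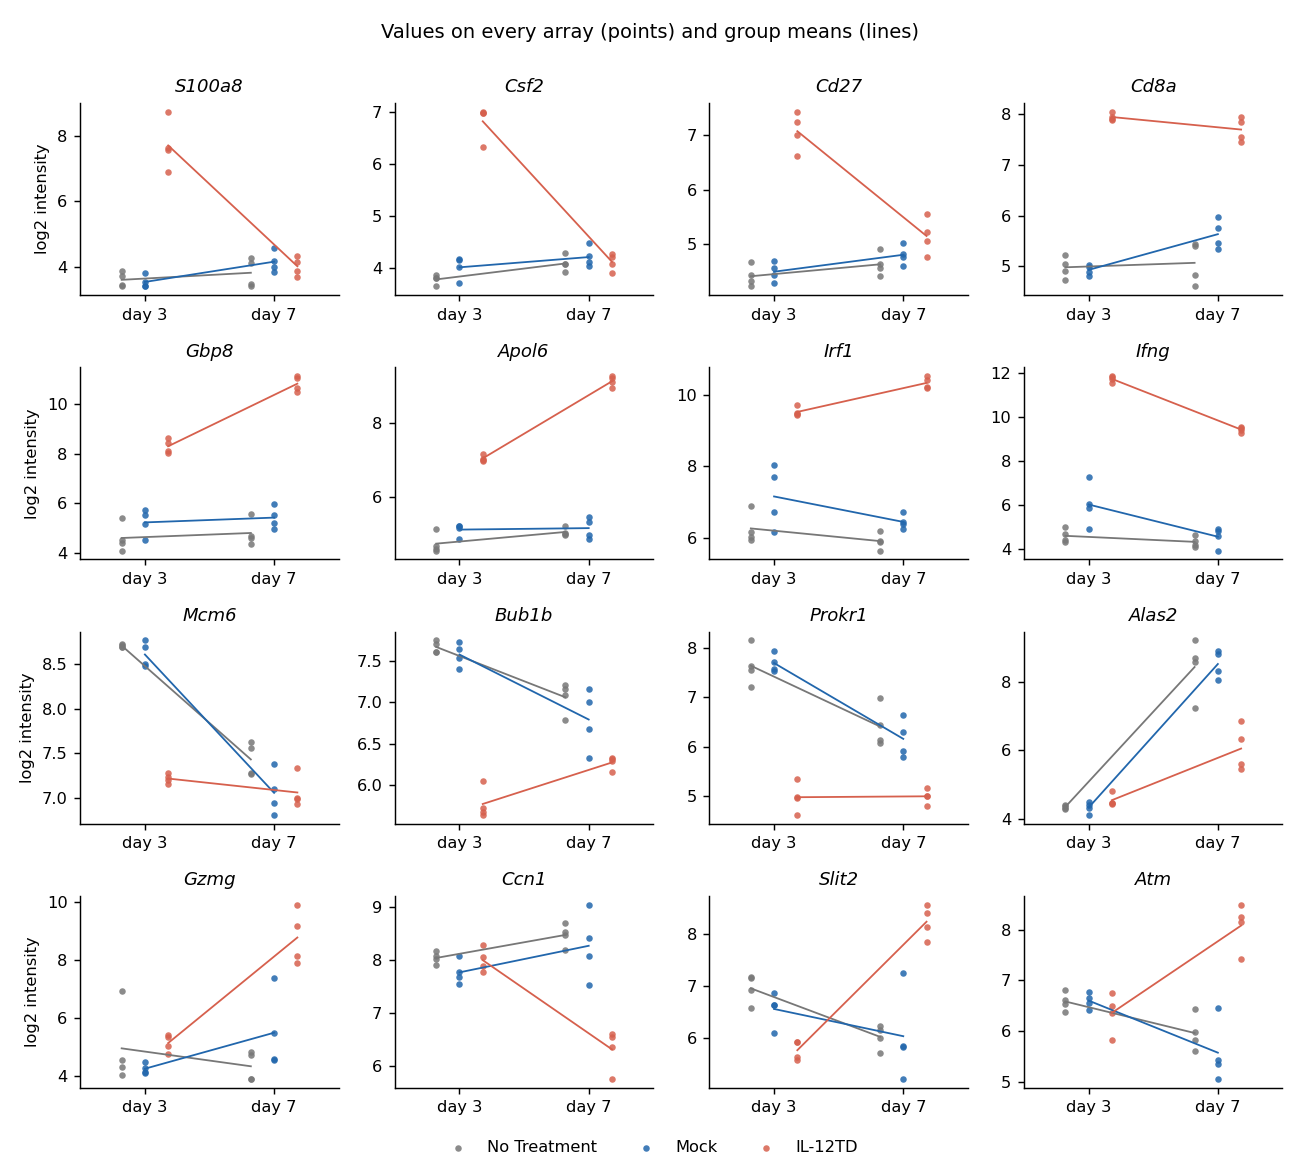
Points are the log2 intensities of single arrays and lines join group means from day 3 to day 7, for No Treatment, Mock and IL-12TD tumours, n = 4 per group. The IL-12TD arm falls in S100a8, Csf2, Cd27 and Ifng and rises in Gbp8, Apol6, Slit2 and Atm, while in Mcm6 and Prokr1 the Mock and No Treatment arms fall to or towards a low IL-12TD level.

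Against these falls, most guanylate-binding protein genes rose further. They are interferon-induced GTPases that act on vacuoles and membranes of microbes. Of 9 measured members of the guanylate-binding and immunity-related GTPase list, 8 had a called positive interaction (24.1% of all genes did) and 0 a negative one, with a median of 1.83. The median difference from Mock was 2.66 at day 3 and 3.87 at day 7. The count was 8 after quantile normalisation (12.9% of all genes) and 6 with equal interquartile ranges (13.7%), with 0 negative in both. Between the days 6 rose in IL-12TD tumours (20.2% of all genes did) with a median of 0.95, and 3 fell in Mock tumours (27.1% of all genes did) with a median of -0.54. After quantile normalisation 7 rose in IL-12TD and 4 fell in Mock tumours, and with equal interquartile ranges 4 and 5.

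Gbp8 read 8.43, 8.64, 8.01 and 8.11 in IL-12TD tumours at day 3 and 10.63, 10.47, 11.11 and 11.03 at day 7. Its Mock values were 5.75, 4.53, 5.52 and 5.16 at day 3 and 5.98, 5.21, 5.55 and 4.98 at day 7. The IL-12TD arrays were higher on every array of the later day while Mock overlapped between the days. The difference grew from 8.33-fold to 41.6-fold (interaction 2.32 ± 0.39, adjusted p = 0.000102), through a rise of 2.51 ± 0.27 in the IL-12TD arm alone. Gbp4 (interaction 2.38 ± 0.74) and Gbp11 (2.22 ± 0.41) also moved in the IL-12TD arm alone, and Gbp4 was not called with equal interquartile ranges (1.89, adjusted p = 0.0507) or against No Treatment (1.85, adjusted p = 0.0625). Gbp7 moved in both arms, by 0.75 ± 0.29 in IL-12TD and by -1.03 ± 0.29 in Mock tumours (interaction 1.79 ± 0.40). Irgm1, an immunity-related GTPase, had an interaction of 1.95 in which the Mock arm alone was called, with a fall of 1.69. With equal interquartile ranges the Irgm1 interaction was 0.77 and not called (adjusted p = 0.153). The guanylate-binding genes are close copies of each other, so how the signal divides among them is uncertain.

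Apol6, a gene of the apolipoprotein L family, followed the same course. It read 6.97, 7.01, 7.04 and 7.17 in IL-12TD tumours at day 3 and 9.28, 8.95, 9.12 and 9.22 at day 7. The 8 Mock values lay between 4.85 and 5.45. The groups were apart at both days and the difference grew from 3.82-fold to 15.9-fold, an interaction of 2.05 ± 0.20 (adjusted p = 2.16e-07) from the IL-12TD arm alone.

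Irf1, the transcription factor that relays interferon gamma, read 9.71, 9.47, 9.46 and 9.42 in IL-12TD tumours at day 3 and 10.18, 10.20, 10.51 and 10.41 at day 7. Mock tumours read 7.70, 6.18, 8.04 and 6.74 at day 3 and 6.74, 6.25, 6.45 and 6.39 at day 7. IL-12TD was higher on every array of the later day, and the Mock days overlapped. The interaction of 1.51 ± 0.36 (adjusted p = 0.00214) came from both arms, with a rise of 0.81 ± 0.26 in IL-12TD and a fall of 0.71 ± 0.26 in Mock tumours. It was 0.86 and not called with equal interquartile ranges (adjusted p = 0.0609). Thus, as deposited, Irf1 and 6 of the 9 guanylate-binding and immunity-related GTPase genes were higher in IL-12TD tumours at day 7 than at day 3, while Ifng was lower. With equal interquartile ranges 4 of the 9 GTPase genes were called as rising in that arm.

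The promoters of 4 genes are shown because they belong to genes that moved in opposite ways: Gbp7 and Irf1 strengthened, and S100a8 and Cxcl2 faded. They are the 250 bases before the transcription start in RefSeq on build GRCm38.p6, written 5′ to 3′ on the gene's strand. Capitals mark matches, on either strand, to the interferon-stimulated response element (ISRE, GAAA, any 2 bases and GAAA) or to the gamma-activated site (GAS, TTCNNNGAA). Gbp7 lies at chr3:142530086-142530335 (+) with GAS matches starting at -106 and -87 and an ISRE match at -53 from the start. Irf1 lies at chr11:53769764-53770013 (+) with a GAS match at -90. S100a8 at chr3:90668821-90669070 (+) and Cxcl2 at chr5:90903649-90903898 (+) hold no match to these letters in the window. Gbp7 and Irf1 are shown for their matches and do not stand for the strengthened genes in general. No match was found for Erap1, Ifih1, Jak1, Mlkl, Ptpn6, Tap1 and Tapbp, which strengthened too and are described below, nor in the window of another Irf1 start at chr11:53770223-53770472 (+). A further strengthened gene of the pan-leukocyte list held no match either. No window was available for Gbp4, Gbp8 and Gbp11, nor for the strengthened genes Apol6, Ciita, Mx1, Gsdmd, Parp14 and Nlrc5, so their matches are not known.
Gbp7: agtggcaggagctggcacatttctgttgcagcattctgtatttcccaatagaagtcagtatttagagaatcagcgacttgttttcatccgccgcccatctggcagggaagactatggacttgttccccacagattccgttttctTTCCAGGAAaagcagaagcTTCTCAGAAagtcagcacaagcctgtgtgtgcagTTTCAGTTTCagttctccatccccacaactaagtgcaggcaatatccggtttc
Irf1: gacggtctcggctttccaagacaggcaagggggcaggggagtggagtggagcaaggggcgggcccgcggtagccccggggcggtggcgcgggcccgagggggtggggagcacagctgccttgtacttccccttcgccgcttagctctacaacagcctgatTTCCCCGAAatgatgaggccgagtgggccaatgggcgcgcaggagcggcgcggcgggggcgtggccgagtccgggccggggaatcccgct
S100a8: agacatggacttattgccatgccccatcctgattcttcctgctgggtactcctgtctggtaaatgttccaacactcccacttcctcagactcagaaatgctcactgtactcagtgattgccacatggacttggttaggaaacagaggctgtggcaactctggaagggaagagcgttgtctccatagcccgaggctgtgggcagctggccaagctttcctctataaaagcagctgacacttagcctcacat
Cxcl2: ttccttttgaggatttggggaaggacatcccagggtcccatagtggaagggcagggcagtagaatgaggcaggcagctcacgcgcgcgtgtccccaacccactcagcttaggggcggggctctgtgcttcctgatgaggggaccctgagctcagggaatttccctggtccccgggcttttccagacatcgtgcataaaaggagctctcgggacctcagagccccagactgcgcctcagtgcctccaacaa
The table held a window for 15614 tested genes, of which 3.4% held an ISRE match and 7.71% a GAS match, and over all 32851 starts of the table the shares were 2.98% and 7.02%. Of the 101 strengthened higher genes with a window, 18 (17.8%) held an ISRE match and 18 (17.8%) a GAS match. Of 370 lasting higher genes the shares were 11.6% and 10.8%, and of 1404 faded higher genes 3.56% and 8.9%. These are counts of letters, and they do not show binding.

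Other interferon and antigen presentation genes were mixed, and their list medians depended on scaling. Of 19 genes of interferon gamma signalling, 7 had a positive and 0 a negative called interaction as deposited, 5 and 2 after quantile normalisation, and 3 and 5 with equal interquartile ranges. Of 23 antiviral genes these counts were 8 and 2, 5 and 3, and 4 and 4. Over all genes the positive and negative shares were 24.1% and 18.4%, 12.9% and 12.1%, and 13.7% and 15.9%. Ciita, the master regulator of MHC class II genes, strengthened from 0.71 ± 0.12 to 1.86 ± 0.12 through a rise of 1.32 ± 0.12 in IL-12TD tumours alone. Mx1, an antiviral GTPase, strengthened from 1.67 ± 0.20 to 2.91 ± 0.20 and Gsdmd, the pore-forming executor of pyroptosis, from 1.38 ± 0.13 to 2.39 ± 0.13, in the same arm alone. Parp14, an interferon-induced ADP-ribosyltransferase, moved up in IL-12TD and down in Mock tumours (interaction 1.44 ± 0.34). The viral RNA sensor Ifih1 (1.46 ± 0.29) and the peptide-trimming enzyme Erap1 (1.10 ± 0.29) strengthened while Mock fell, by 1.29 ± 0.20 and 1.27 ± 0.21, with no called change in IL-12TD. The kinase Jak2 was late, at 0.24 ± 0.20 and 1.503 ± 0.20, with IL-12TD rising and Mock falling.

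Several of these calls did not survive a change of scale. With equal interquartile ranges the interaction was not called for Jak1 (0.13, against 0.85 ± 0.19 as deposited, Mock arm alone), the class I transactivator Nlrc5 (0.15, against 1.08 ± 0.23, both arms rising) and the necroptosis effector Mlkl (0.29, against 1.05 ± 0.25, Mock arm alone). The same held for the phosphatase Ptpn6 (0.18, against 0.85 ± 0.15, arms moving apart). The 19 probesets of Nlrc5 all had positive interactions as deposited, from 0.44 to 3.11. Tapbp, which loads peptides on class I molecules, was at 0.84 ± 0.26 (Mock arm alone) and was not called after quantile normalisation (0.43) or with equal interquartile ranges (-0.15). Tap1, a subunit of the peptide transporter, was at 0.99 ± 0.37 (adjusted p = 0.0334) with neither arm called. It lost the call in both rescaled fits and in 10 of 16 fits that each left out an array (values from 0.80 to 1.32, adjusted p up to 0.0867). The median of the 15 class I genes was 0.16 as deposited, -0.01 after quantile normalisation and -0.72 with equal interquartile ranges, so its direction is not settled.

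Most class II antigen presentation genes were lasting. Of 8 class II genes, 0 had a called interaction by limma's test and 6 were sorted as lasting and higher (2.49% of all genes). The median interaction was 0.32 as deposited and -0.18 with equal interquartile ranges. H2-Ab1, a chain of the class II molecule, read 10.64, 10.46, 10.25 and 10.39 in IL-12TD tumours at day 3 and 10.63, 10.59, 10.74 and 10.98 at day 7. Mock tumours read 8.20, 7.99, 8.17 and 7.65 at day 3 and 8.36, 7.84, 8.48 and 7.49 at day 7. The arms were apart at both days and each arm overlapped itself between the days, with differences of 2.43 ± 0.34 and 2.69 ± 0.34. H2-Aa (2.33 ± 0.32 and 3.17 ± 0.32) and the invariant chain gene Cd74 (2.17 ± 0.35 and 3.00 ± 0.35) were lasting with neither arm called. In a limma fit of only the 16 arrays compared, the interaction was called for H2-Aa (0.84, adjusted p = 0.0138) and Cd74 (0.83, adjusted p = 0.0493). With array weights it was called for H2-Aa (0.92, adjusted p = 0.044). In No Treatment tumours H2-Ab1, H2-Aa and Cd74 fell between the days, by 1.42 ± 0.34, 1.48 ± 0.32 and 1.55 ± 0.35. Against that reference their interactions were called, at 1.72, 2.24 and 2.12.

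Further lasting genes came from the interferon response and from leukocytes. The chemokine genes Cxcl9 (2.93 ± 0.50 and 2.97 ± 0.50) and Cxcl10 (2.24 ± 0.28 and 3.04 ± 0.28) attract effector T cells. For both, a fall between the days was called in the Mock arm and no change was called in IL-12TD. The Cxcl9 interaction was 0.04 ± 0.71, so its arms changed by nearly the same amount although only Mock was called. The Cxcl10 interaction of 0.80 ± 0.40 was called without Mock day 3 replicate 2 (1.12), Mock day 7 replicate 1 (1.06) or, in IL-12TD, day 7 replicate 2 (1.02). Cd274, which encodes PD-L1, differed by 2.73 ± 0.22 and 3.43 ± 0.22 with neither arm called, and its interaction was called without Mock day 3 replicate 2 (0.90). Ptprc, the pan-leukocyte antigen CD45, differed by 2.14 ± 0.28 and 2.59 ± 0.28, and the death receptor gene Fas by 0.93 ± 0.12 and 0.61 ± 0.12, with neither arm called. Of 14 pan-leukocyte markers, 11 were lasting, beside 2.49% of all genes lasting and higher and 2.6% lasting and lower. Their median difference was 1.66 at both days. Their summed level (log2 of the sum) ran from 12.25 to 12.61 on IL-12TD arrays at day 3 and from 11.91 to 12.37 at day 7, beside 10.87 to 11.17 and 10.17 to 10.88 on Mock arrays. The pan-leukocyte median interaction was 0.03 as deposited and turned to -0.13 and -0.36 in the rescaled fits, beside -1.55, -1.40 and -1.33 for the neutrophil list.

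Lower and lasting was Scd1, which encodes a desaturase of fatty acid synthesis. It read 7.55, 8.03, 7.62 and 7.68 in IL-12TD tumours at day 3 and 6.62, 5.82, 6.12 and 6.39 at day 7. Mock tumours read 9.57, 9.72, 9.51 and 9.97 at day 3 and 8.78, 8.49, 7.75 and 7.999 at day 7. Both arms fell with no overlap between days, by 1.48 ± 0.22 and 1.44 ± 0.22, and the difference was -1.98 ± 0.22 at day 3 and -2.02 ± 0.22 at day 7. The Scd1 interaction of -0.04 became -1.03 and was called with equal interquartile ranges (adjusted p = 0.0152), where Scd1 was strengthened. The glycerol phosphate dehydrogenase gene Gpd1 had differences of -1.72 ± 0.20 and -1.35 ± 0.20, again with both arms falling. Of 16 sterol and fatty acid synthesis genes, 9 were lasting and lower (2.6% of all genes), and 6 had a positive interaction as deposited (24.1% of all genes). The median of 0.49 fell to 0.00 after quantile normalisation and to -0.35 with equal interquartile ranges. In the latter fit 6 were negative and 1 positive (15.9% and 13.7% of all genes). Hmgcs1, an early enzyme of sterol synthesis, was at 0.92 ± 0.24 with the Mock arm alone falling, and was not called in either rescaled fit (0.46 and 0.42) or against No Treatment (0.28).

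**Figure D4:**
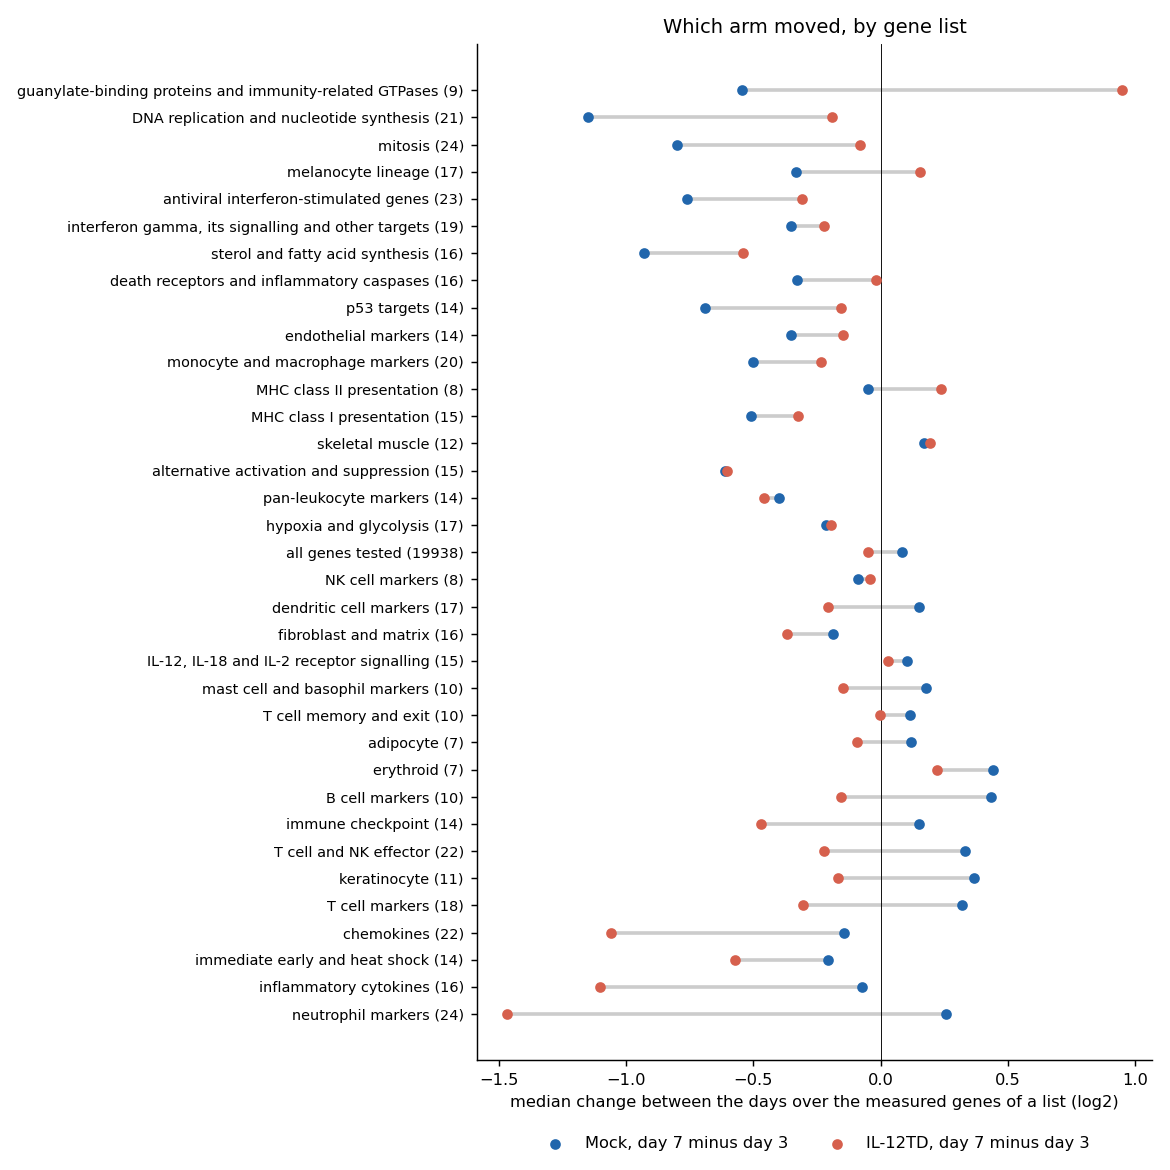
Each row is a gene list with its number of measured genes in brackets, ordered by the median interaction as deposited. Points give the median change from day 3 to day 7 (log2) over the list in Mock and in IL-12TD tumours. Neutrophil, cytokine and chemokine lists fall in IL-12TD, replication and mitosis lists fall in Mock, and the order of the melanocyte, class I, class II, sterol, hypoxia, natural killer, mast cell, alternative activation and pan-leukocyte lists around 0 turns with scaling.

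Most cell cycle genes of both lists were lower in IL-12TD than in Mock tumours at day 3 and fell in Mock tumours between the days. Of 21 DNA replication and nucleotide synthesis genes, 17 had a positive and 0 a negative called interaction, with a median of 1.03 (24.1% of all genes were positive). The count was 14 after quantile normalisation (12.9% of all genes) and 9 with equal interquartile ranges (13.7%), with 0 negative in both. Between the days 18 of the 21 fell in Mock tumours (27.1% of all genes did) with a median of -1.15. In IL-12TD tumours 7 fell (21.6% of all genes did), with a median of -0.19. The median difference from Mock went from -1.24 to -0.16, and 13 of the 21 were faded and lower at day 3 (13.4% of all genes). Of 24 mitosis genes, 18 were positive and 0 negative (median 0.75), with 19 falling in Mock tumours. The rescaled counts were 9 positive and 2 negative (12.9% and 12.1% of all genes), and 8 positive and 2 negative (13.7% and 15.9%). Of the 24, 13 were weakened, 6 lasting and 5 faded, all lower (0.607%, 2.6% and 13.4% of all genes).

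Mcm6, a subunit of the replicative helicase, read 8.49, 8.69, 8.47 and 8.76 in Mock tumours at day 3 and 7.37, 7.10, 6.94 and 6.81 at day 7. IL-12TD tumours read 7.28, 7.24, 7.20 and 7.16 at day 3 and 7.33, 6.99, 6.93 and 6.99 at day 7. The Mock arrays fell on every array without overlap, the IL-12TD arrays overlapped between the days, and the arms overlapped at day 7. The interaction was 1.39 ± 0.18 (adjusted p = 6.6e-06) with the Mock arm alone called, falling by 1.55 ± 0.12. No Treatment tumours fell as well, by 1.27 ± 0.12. Rrm1, a subunit of ribonucleotide reductase, fell in both arms, by 1.92 ± 0.17 in Mock and 0.51 ± 0.17 in IL-12TD tumours, and was not called with equal interquartile ranges (0.59, adjusted p = 0.0816). Cdt1, a replication licensing factor, rose in IL-12TD and fell in Mock tumours (interaction 1.16 ± 0.20).

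Bub1b, a kinase-like protein of the spindle checkpoint, read 7.39, 7.64, 7.54 and 7.72 in Mock tumours at day 3 and 7.16, 7.00, 6.68 and 6.32 at day 7. IL-12TD tumours read 5.68, 5.64, 5.72 and 6.05 at day 3 and 6.32, 6.16, 6.29 and 6.33 at day 7. The arms approached each other from both sides and touched at day 7, with a fall of 0.78 ± 0.14 in Mock and a rise of 0.50 ± 0.14 in IL-12TD tumours (interaction 1.28 ± 0.20, adjusted p = 5.66e-05). Anln, which builds the cleavage furrow, and Ncapd2, a condensin subunit, also rose in IL-12TD and fell in Mock tumours (1.47 ± 0.21 and 1.28 ± 0.21), and Ncapd2 was not called with equal interquartile ranges (0.52, adjusted p = 0.0589). The mitotic motor Kif11 (1.40 ± 0.21) fell in Mock alone. Mki67, the proliferation antigen, rose by 0.60 ± 0.15 in IL-12TD alone. Its interaction of 0.73 ± 0.22 was not called after quantile normalisation (0.16) and was -0.02 with equal interquartile ranges and 0.18, not called, against No Treatment. Of 14 p53 target genes, 6 were positive and 2 negative as deposited (24.1% and 18.4% of all genes) and 2 and 3 with equal interquartile ranges (13.7% and 15.9%). Zmat3 and Gtse1 of that list had interactions of 0.93 ± 0.15 and 0.99 ± 0.21 with the Mock arm alone falling.

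Among single genes that faded or weakened through the Mock arm, Prokr1, a prokineticin receptor, had the largest day 3 difference. It read 7.53, 7.59, 7.73 and 7.96 in Mock tumours at day 3 and 6.63, 6.31, 5.78 and 5.90 at day 7, against 4.96, 5.33, 4.97 and 4.61, then 4.99, 4.80, 5.00 and 5.17 in IL-12TD tumours. The IL-12TD days overlapped and the Mock days did not. The difference went from -2.73 ± 0.20 to -1.17 ± 0.20, with Mock alone falling, by 1.54 ± 0.20, and No Treatment falling by 1.24 ± 0.20. Peg10, a retrotransposon-derived imprinted gene, faded from -2.11 ± 0.21 to 0.12 ± 0.21 as Mock alone fell by 1.85 ± 0.21. The nuclear pore gene Nup155, the ciliary transport gene Wdr35 and Tmem184c had interactions of 2.27 ± 0.33, 2.02 ± 0.24 and 1.96 ± 0.27, with IL-12TD rising and Mock falling in all 3.

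Melanocyte genes were not settled by these values. Of 17 lineage genes, 11 had a positive interaction as deposited (24.1% of all genes, median 0.73) and 2 after quantile normalisation (12.9%, median 0.36). With equal interquartile ranges 0 were positive and 6 negative (13.7% and 15.9% of all genes, median -0.20). Tyr, the rate-limiting enzyme of melanin synthesis, had an interaction of 0.73 ± 0.28 (adjusted p = 0.0402) with the Mock arm alone falling, by 1.01 ± 0.20. It was not called in 10 of 16 fits that each left out an array (values from 0.55 to 0.95, adjusted p up to 0.114) and was also not called after quantile normalisation (0.36), with equal interquartile ranges (-0.44) or against No Treatment (0.40). Pmel, the target of the transferred cells, was not called at either day, with an interaction of 0.52 ± 0.22 (adjusted p = 0.0604) and neither arm called. Without Mock day 7 replicate 1 it was called at 0.70, and without IL-12TD day 7 replicate 2 at 0.61, while equal interquartile ranges gave -1.35 (adjusted p = 0.000296). Mitf, the lineage transcription factor, was at 1.08 ± 0.27 by its brighter probeset with IL-12TD alone rising, and at -0.84 by its dimmer one. It was not called with equal interquartile ranges (-0.20, adjusted p = 0.537) or by the mean of its probesets (0.12, adjusted p = 0.62). Mc1r, the melanocortin receptor, was at 1.04 ± 0.27 with the arms moving apart and Rab38, a melanosome transport protein, at 0.96 ± 0.21 with the Mock arm alone falling. With equal interquartile ranges Mc1r and Rab38 became 0.43 and 0.06, not called, and Mc1r was not called after quantile normalisation (0.59).

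Late and lower genes included the erythroid pair Alas2, the first enzyme of haem synthesis in red cells, and Slc4a1, their anion exchanger. Alas2 read 4.41, 4.33, 4.13 and 4.49 in Mock tumours at day 3 and 8.31, 8.90, 8.81 and 8.05 at day 7. IL-12TD tumours read 4.82, 4.45, 4.47 and 4.48 at day 3 and 5.45, 6.32, 5.60 and 6.86 at day 7. Both arms rose without overlap between the days, by 4.18 ± 0.29 in Mock and 1.503 ± 0.29 in IL-12TD tumours, and No Treatment tumours rose by 4.07 ± 0.29. The arms overlapped at day 3 and were apart at day 7, with an interaction of -2.68 ± 0.40 (adjusted p = 4.16e-05). Slc4a1 had an interaction of -1.26 ± 0.34 with the Mock arm alone rising, by 1.67 ± 0.24. Of the 7 erythroid genes 3 were called negative and 1 positive, beside 18.4% and 24.1% of all genes. Their summed level (log2 of the sum) was 9.42 to 9.73 on Mock and 8.11 to 8.61 on IL-12TD arrays at day 7, beside 8.43 to 8.67 and 7.89 to 7.98 at day 3.

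Ccn1, a matrix-associated protein induced by serum and stretch, was late and lower through the IL-12TD arm. It read 8.28, 7.77, 8.06 and 7.88 in IL-12TD tumours at day 3 and 5.75, 6.55, 6.60 and 6.35 at day 7. Mock tumours read 8.07, 7.68, 7.78 and 7.54 at day 3 and 7.52, 8.42, 8.08 and 9.05 at day 7. The arms overlapped at day 3 and were apart at day 7, with an interaction of -2.18 ± 0.31 (adjusted p = 2.1e-05) and a fall of 1.68 ± 0.22 in IL-12TD alone. Rps29, a ribosomal protein gene, was late and lower with IL-12TD falling and Mock rising (-1.33 ± 0.24). The 8 strengthened lower genes included Cntfr, a neurotrophic cytokine receptor that fell in both arms (-0.66 ± 0.22), and the membrane-fission GTPase Dnm1, with arms moving apart (-0.95 ± 0.27). Ppp1r14b, a phosphatase inhibitor gene, moved in IL-12TD alone (-0.79 ± 0.20), and Car9, a hypoxia-induced carbonic anhydrase, in Mock alone (-0.64 ± 0.20). In both rescaled fits Cntfr stayed strengthened, while Dnm1 and Ppp1r14b were sorted as late. Car9 was late after quantile normalisation and reversed with equal interquartile ranges. Cntfr was not called without Mock day 7 replicate 1 and IL-12TD day 7 replicate 2 together (-0.51, adjusted p = 0.0621), a fit chosen after the data were seen.

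Large positive interactions were also seen in genes that were late or reversed upward. Slit2, a secreted guidance protein, read 5.64, 5.93, 5.58 and 5.93 in IL-12TD tumours at day 3 and 8.56, 7.84, 8.40 and 8.13 at day 7. Mock tumours read 6.64, 6.10, 6.64 and 6.86 at day 3 and 7.24, 5.22, 5.86 and 5.84 at day 7. IL-12TD lay below Mock at day 3 and above it at day 7 without overlap, and Mock replicate 1 was the highest Mock array at day 7. The difference went from -0.79 ± 0.26 to 2.19 ± 0.26 (interaction 2.98 ± 0.37, adjusted p = 5.71e-06), with only the IL-12TD arm called as changed. Atm, the kinase of the DNA double-strand break response, read 6.76, 6.50, 5.83 and 6.35 in IL-12TD tumours at day 3 and 8.49, 7.42, 8.15 and 8.25 at day 7. Its Mock values were 6.56, 6.42, 6.66 and 6.76 at day 3 and 6.46, 5.42, 5.05 and 5.36 at day 7. The arms overlapped at day 3 only, and they moved apart, by 1.72 ± 0.24 and -1.03 ± 0.24 (interaction 2.75 ± 0.34).

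Late and higher were also the ephrin receptor Epha3 (2.52 ± 0.45, arms moving apart), the glutamate receptor Grik2 (2.41 ± 0.34) and the phospholipid flippase Atp8a1 (2.40 ± 0.29), the last pair through IL-12TD alone. Reversed upward were the transcription initiation factor Taf2 (2.55 ± 0.31), the endocytic receptor Cubn (2.44 ± 0.29) and the GPI-anchor enzyme Pgap1 (2.37 ± 0.29), with arms moving apart. The kinase Cdc42bpa (2.45 ± 0.31) and Nbeal1 (2.40 ± 0.38) reversed through IL-12TD alone. Smaller reversals were seen in the survival factor Bcl2 (1.23 ± 0.30) and the scavenger receptor Stab1 (1.59 ± 0.27), with arms moving apart, and in the receptor tyrosine kinase Kit (1.66 ± 0.29) and the lipid synthesis enzyme Acaca (1.63 ± 0.24), through IL-12TD alone. Bcl2 was sorted as late in both rescaled fits. Reversed downward were the sialoglycoprotein gene Cd24a (-1.80 ± 0.35), with both arms moving, and Tent5c, a poly(A) polymerase (-1.72 ± 0.35), with Mock alone rising, by 2.04 ± 0.25.

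Genes of these groups shared a property that the sorting did not use. The median genomic span from RefSeq was 61866 bases for the 734 genes reversed upward and 37715 bases for the 842 late higher genes, against 17707 bases over all tested genes with a span. It was 34182 bases for faded lower genes and 12138 bases for faded higher ones. The median interaction rose over deciles of genes by span from -0.36 in the shortest to 0.38 in the 9th decile, and was 0.20 in the longest. After quantile normalisation it was -0.09 in the shortest, -0.23 in the 2nd, 0.17 in the 9th and 0.12 in the longest decile. The deciles were added after the data were seen. The day 7 arrays also differed along 1 shared axis within groups, which held 21.1% of the variance within groups, with Mock replicate 1 (0.51) and IL-12TD replicate 2 (-0.32) at opposite sides of the day 7 groups compared. Without these 2 arrays, 2078 genes were reversed and 2024 late in place of 1002 and 1333.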

How the data were processed

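The deposited series table holds log2 intensities of 35556 probesets on 24 Affymetrix arrays, between 1.009 and 14.367, made by the authors with RMA per the submitters' processing notes; the version, and whether all arrays were normalised together, are not given in the sources used here. The array number limits the precision, and arrays of a group correlated at r of 0.962 to 0.992. Groups were taken from the sample titles; for Mock at day 7, 1 label field gives the earlier day and the remaining fields day 7. Probesets naming 1 gene (21789; 1621 named several and 12146 none) were reduced to the brightest per gene, which gave 19938 genes, 999 of them with more than 1 probeset. Symbols of 21698 of these probesets came from the reference list and 91 from the platform annotation.

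Group means over all 24 arrays were fitted with limma 3.58.1 in R 4.3.3 (lmFit and eBayes, two-sided, Benjamini-Hochberg over 19938 genes, adjusted p under 0.05). Data were also simulated with each gene's own spread and independent noise, with 100 genes changed by 1 and 100 by 2 (log2). The interaction was recovered for 78% and 100% of them, and 12 unchanged genes were called. The simulation held few changed genes and no axis shared within groups, so these rates may not hold for the data. The design text calls the 4 arrays of a group biological replicates. Correlations of deviations from group means between same-numbered arrays ran from -0.18 to 0.38, so the numbers were not used as pairs.

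The members and gene lists were chosen with earlier results of these data known. Named genes were the 12 most positive and 12 most negative interactions (leaving out clone, small RNA and olfactory receptor names), the 4 largest of each pattern and direction, up to 3 per gene list by adjusted p, and a fixed set; Irgm1, Lcn2, Elane, Mpo, Camp, Dct, Il12a and Il12b were chosen after their values were seen. Alternatives were quantile normalisation, median centring, equal interquartile ranges, a filter on dim genes, array weights, another variance prior, the 16 arrays alone, the mean of probesets, all probesets, a replicate block, No Treatment as reference, and each of 16 arrays left out.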

Additional observations from a re-analysis of the deposited data

Results flagged for a closer look

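The screen for an array far from the other 3 of its group covered 92 groups of 4 values, and 5 exceeded Dixon's limit for 4 values; chance alone passes about 1 in 20. Csf2 read 6.326 on IL-12TD day 3 replicate 1, with the others between 6.98 and 7.006. Apol6 read 4.852 on Mock day 3 replicate 2, with the others between 5.168 and 5.223. Mcm6 read 7.329 on IL-12TD day 7 replicate 1, with the others between 6.928 and 6.994. Alas2 read 4.816 on IL-12TD day 3 replicate 1, with the others between 4.45 and 4.481. The interquartile range of IL-12TD day 3 replicate 3 was 2.083, with the others between 2.314 and 2.333.

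The difference between IL-12TD and Mock tumours itself differed between the days, by limma's interaction term, for 8467 genes, and in 1002 genes it was called in opposite directions at the 2 days.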

How the results depend on the processing

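The number of arrays, the scale of the arrays and the unknown batch limit these results; the cause of each change below was not tested. As deposited, 8467 genes were called, 4800 higher and 3667 lower, with 1015 lasting, 204 weakened, 4548 faded, 1002 reversed, 146 strengthened and 1333 late. Quantile normalisation gave 4998 called, 2581 higher and 2417 lower, with 125 weakened, 1946 faded and 647 reversed, and 1616 with only Mock called. Equal interquartile ranges gave 2736 higher, 2498 faded and 1914 with only Mock called. Without dim genes 1664 were lower. Array weights gave 2423 reversed and 2752 late. All probesets gave 5891 lower, 2167 late and 4645 with only IL-12TD called. No Treatment as reference gave 5517 called, 1816 lower, 1528 lasting, 421 reversed and 1636 with only the reference arm called. Without Mock day 7 replicate 1 and IL-12TD day 7 replicate 2, an alternative chosen after seeing the data, 2078 were reversed and 2024 late. The replicate block gave 8477 called genes; same-numbered arrays were best correlated for 5 of 16 arrays.

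Leaving out 1 array at a time gave 7082 to 9408 called, 4159 to 5216 higher and 2885 to 4192 lower. It gave 853 to 1058 lasting, 139 to 201 weakened, 3404 to 4589 faded and 121 to 185 strengthened. Reversed genes ran from 529 (without Mock day 7 replicate 3) to 1785 (without Mock day 7 replicate 1) and late ones from 895 (without IL-12TD day 7 replicate 1) to 1854 (without Mock day 7 replicate 1). Only IL-12TD was called in 2231 to 2898 and only Mock in 2635 to 3806. Of 129 genes named, 115 kept sign and side of the threshold in all 16 of these fits; the sign turned for 2, Cxcl9 (-0.37 to 0.70) and Scd1 (-0.21 to 0.13).

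The sign of other interactions turned with equal interquartile ranges for Tapbp (-0.15), Cxcl9 (-0.68), Cxcl10 (-0.17), H2-Ab1 (-0.74), Cd74 (-0.15), Cd274 (-0.10), Fas (0.0094), Gpd1 (-0.48), Mki67 (-0.0161), Tyr (-0.44), Pmel (-1.35) and Mitf (-0.20). It turned after quantile normalisation for Cxcl9 (-0.0664), H2-Ab1 (-0.14) and Gpd1 (-0.16), with array weights for Cxcl9 (-0.0491) and Scd1 (0.0226), and without the 2 arrays for Scd1 (0.27). Against No Treatment it turned for Cd3g (0.0805), Prf1 (0.34), Cxcl9 (-0.64) and Gpd1 (-0.25). Interactions not called as deposited were called with array weights for Camp, Elane, Mpo, Cxcl10, Fas, H2-Aa, Ifng and Pmel, with only the 16 arrays compared for Cd274, Cd74 and H2-Aa, and with the replicate block for Pmel.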
